A study of Mus musculus with 14 samples.

Results

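The heme synthesis enzymes described here are 8 genes taken by name from both deposited count tables: Alas1, Alas2, Alad, Uros, Urod, Cpox, Ppox and Fech. All 8 were present among the 55367 gene symbols of each table. Poly(A) RNA had been sequenced from primary Lin- cells, mouse marrow from which mature blood lineages were removed, wild-type in genotype and grown in medium with SCF, IL6 plus IL3. The cells of one experiment carried a lentivirus with luciferase (LUC, 3 libraries) or with the mutant SETBP1-D868N (3 libraries). In the other, called the second here, every culture carried SETBP1-D868N, and cells were treated for 4 days with DMSO, the solvent control (4 libraries), or with 2.5 µM PF-9363, an inhibitor of MYST histone acetyltransferases (4 libraries). SETBP1-D868N was thus delivered by a virus and not from its own locus, and the second experiment has no arm without it. Neither age nor strain of the mice is given in the sources used here. Nothing in the labels ties replicates to separate animals, so p-values measure the spread between these libraries, which may be technical.

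Heme is built in a chain of enzymes that begins and ends in mitochondria and passes through the cytosol in between. The first step joins glycine to succinyl-CoA and is made by either Alas1, the form found in most cells, or Alas2, the form of red cell precursors; it sets the pace of the pathway, and Alas1 is repressed by heme itself. In bone marrow, red cell precursors make heme for hemoglobin, while myeloid cells need it for myeloperoxidase, the phagocyte oxidase and the cytochromes of respiration.

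Nearly all mRNA for the first step was Alas1, and Alas2 was close to absent. With SETBP1-D868N, Alas1 fell slightly, Alad rose slightly, and 5 other enzymes did not pass the test. With PF-9363, 5 enzymes fell, led by Cpox at 4.37-fold lower, while Uros rose and Fech did not pass the test. Of all genes tested, 47.2% passed the test with SETBP1-D868N. With PF-9363, 76% passed it, and 39.4% of all tested genes fell.

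The promoters below belong to Cpox and Urod, the enzymes with the largest falls under PF-9363. They are shown so that the 3 motifs searched can be seen in place. One is the GATA site of erythroid factors (GATAAG, or CTTATC on the other strand), one the E-box CACGTG, and one the NRF1 site, whose 10 letters are in capitals in the line for Alas1. The E-box and the NRF1 site read the same on both strands, and none of the 3 overlaps another. Sequences are from RefSeq on GRCm38.p6, on the strand of the gene, and run from 250 bases before the start annotated by RefSeq, which can differ from that of GENCODE, up to it. Capitals mark the motif.

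Cpox (chr16:58669958-58670207, plus strand): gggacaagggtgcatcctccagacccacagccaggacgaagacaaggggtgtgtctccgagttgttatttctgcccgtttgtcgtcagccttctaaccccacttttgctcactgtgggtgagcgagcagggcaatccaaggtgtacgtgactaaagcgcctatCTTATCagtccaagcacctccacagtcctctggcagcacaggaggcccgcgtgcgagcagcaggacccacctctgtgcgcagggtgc
Urod (chr4:116994414-116994663, minus strand): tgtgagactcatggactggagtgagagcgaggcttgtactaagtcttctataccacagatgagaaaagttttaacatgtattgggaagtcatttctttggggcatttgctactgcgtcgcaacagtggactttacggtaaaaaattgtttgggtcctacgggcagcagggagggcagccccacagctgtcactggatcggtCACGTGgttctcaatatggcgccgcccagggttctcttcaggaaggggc

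Windows of 300 bases around the start were at hand for 7 of the 8 genes, 10 windows in all, since several genes have more than 1 annotated start. A GATA site was in 7.44% of 32851 such windows of all genes, an E-box in 7.15% and the NRF1 site in 0.971%. Cpox had a further GATA site just after its start, Alad an E-box before its start, and Alas1 the NRF1 site. These 3 matches are printed with 30 bases each, to set them beside the promoters above.

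Cpox, across the start (chr16:58670199-58670228, plus strand): gcagggtgcagtCTTATCtgctctttccgg
Alad, upstream (chr4:62520151-62520180, minus strand): gctccgaatgccCACGTGgaccccctcggg
Alas1, near the start (chr9:106247906-106247935, minus strand): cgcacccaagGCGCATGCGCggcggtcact

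Alad had a second E-box at its other start, and Uros held an E-box at one start and a GATA site at the other. The windows of Ppox and Alas2 held none of the 3 motifs as spelled here, and other forms of the GATA site were not searched. A match is a description of the letters and shows no binding, and a window without one says only that these letters are not in it.

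Total counts ran from 60147266 to 68730322 per library in the first experiment and from 7083731 to 10359093 in the second, so low genes are less precise in the second. Levels are given as CPM, counts scaled to the library total, after TMM correction, which corrects for differences in library composition. Groups were compared by edgeR's quasi-likelihood test, and a gene was called at a Benjamini-Hochberg adjusted p under 0.05 over all genes tested. A very large share of all genes was called: 47.2% of 15794 genes with SETBP1-D868N (24.5% higher, 22.7% lower) and 76% of 13456 genes with PF-9363 (36.6% higher, 39.4% lower). The median log2 change of all tested genes was 0.0043 and -0.038. Libraries of the 2 groups did not overlap for 56.7% of tested genes with SETBP1-D868N and for 70.3% with PF-9363. In bulk RNA, fewer cells of a type and less RNA per cell cannot be told apart. Passing the expression filter could not check the label of lineage-negative progenitors. All 10 progenitor markers passed in both experiments, but so did all 10 macrophage markers and all 10 mast cell and basophil markers. The 5 B, T and NK cell markers summed to at most 2.06 CPM in any library. The progenitor markers summed to 1704 to 1722 CPM with luciferase, far below the neutrophil precursor markers at 25160 to 26210 CPM and the mast cell and basophil markers at 5620 to 5834 CPM. The cultures labelled lineage-negative thus held much RNA of maturing myeloid genes, such as S100a9 at 7257 and Ltf at 3655 CPM.

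Alas1 was by far the most abundant of the enzymes in every group. On the scale of levels per length (RPKM, CPM per kilobase of the longest transcript), it reached 100.4 ± 3.05 in luciferase (SD, n = 3) and 83.0 ± 2.45 in SETBP1-D868N cells (n = 3). In the second experiment it reached 97.8 ± 2.68 with DMSO and 77.3 ± 3.62 with PF-9363 (n = 4 each). Urod was next in all 4 groups, at 23.9, 24.2, 22.6 and 11.6 RPKM in the same order. The tables of the 2 experiments were scaled separately and their libraries prepared differently, so these levels stand side by side without a test.

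Cpox was the third most abundant enzyme per length in luciferase, SETBP1-D868N and DMSO cells, at 19.6, 20.7 and 16.2 RPKM. With PF-9363 it stood at 3.72 RPKM and was the sixth. With the union of all exons as the length it was the fourth in SETBP1-D868N and DMSO cells and still the sixth with PF-9363. Ppox, Alad, Fech and Uros lay between 5.08 and 9.28 RPKM in luciferase cells. Ppox and Alad overlapped there, as did Uros and Alad with DMSO. With PF-9363, Ppox overlapped Fech, Fech overlapped Uros, and Uros overlapped Cpox, while the other neighbours in the order did not overlap. Alad was at 10.8 RPKM in SETBP1-D868N cells of the first experiment and at 3.05 RPKM in the DMSO cells of the second, which also carry SETBP1-D868N. That gap lies between experiments and was not tested. Alas2 was last in every group, at 0.0813, 0.0423, 0.0694 and 0.255 RPKM.

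**Figure D1:**
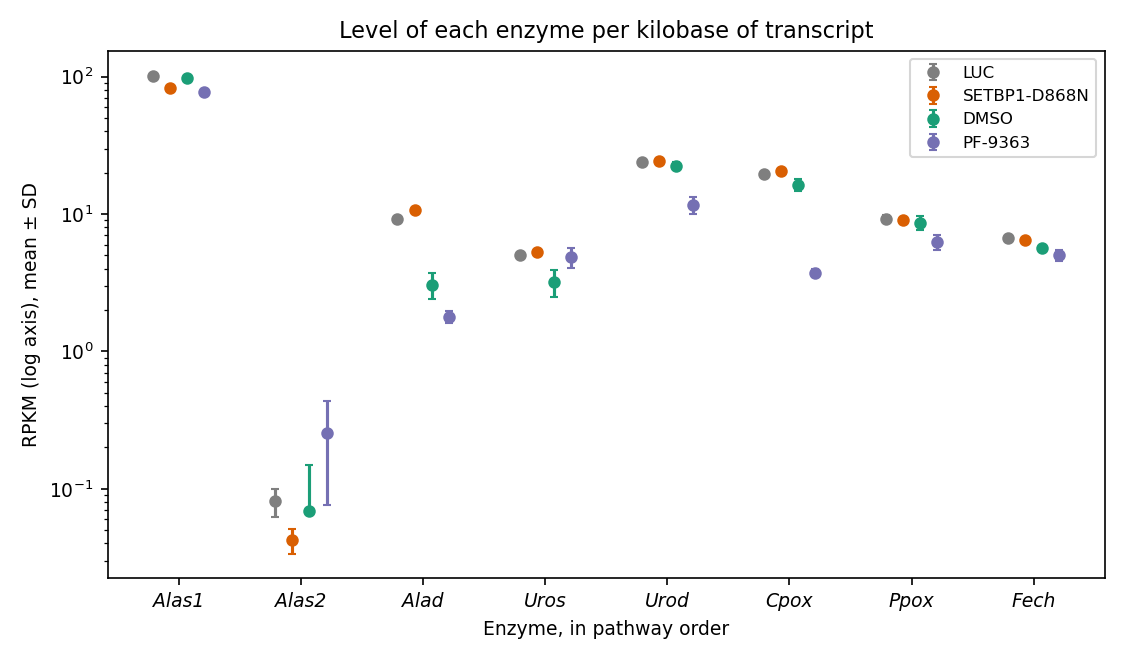
Level of each enzyme per kilobase of its longest transcript (RPKM, log axis) in the 4 groups; points are means over libraries and bars are SD, with no lower bar where the SD exceeds the mean (Alas2 with DMSO). Alas1 lies at 77.3 to 100.4 RPKM in every group and Alas2 below 0.3, while Cpox drops from 16.2 with DMSO to 3.72 with PF-9363.

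Alas2, on the X chromosome (chrX:150547375-150570638, plus strand), was read only a handful of times. The luciferase libraries 1 to 3 held 14, 10 and 8 counts, against 7, 5 and 5 with SETBP1-D868N. The DMSO libraries 1 to 4 held 0, 1, 4 and 1 counts and the PF-9363 libraries 5, 8, 2 and 2. The gene did not pass the expression filter in either experiment and was not tested. The luciferase libraries all lay above the SETBP1-D868N ones, and groups also did not overlap for 56.7% of all tested genes there. The DMSO and PF-9363 libraries overlapped. Fitted without a filter beyond 1 count, Alas2 was called in neither comparison (edgeR adjusted p = 0.238 and 0.113). At so few counts no difference is read from these orders.

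Summed over the libraries of a group, Alas2 stood at 0.167 CPM in luciferase cells (exact 95% Poisson interval 0.114 to 0.236) and 0.0861 CPM in SETBP1-D868N cells (0.0502 to 0.138). With DMSO the sum gave 0.144 CPM (0.0527 to 0.312) and with PF-9363 0.513 CPM (0.299 to 0.822). A count of 0 allows up to 0.322 CPM in the DMSO library without an Alas2 read, on the library total without TMM correction. Reads are not independent molecules, so these intervals and this limit cover counting error only. As a share of Alas1 plus Alas2 per length, Alas1 made up at least 99.3% in each of the 14 libraries. Alas2 shares 311 exon bases with Apex2 on the other strand, and how the counting treated strand is not given in the sources used here. Apex2 stood at 9.50 CPM with DMSO and 5.45 CPM with PF-9363.

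Summed, markers of red cell precursors were read more often than Alas2, though not each of them. With luciferase, Hba-a2 at 0.0319 and Slc4a1 at 0.0347 CPM lay below Alas2 at 0.166 CPM. Of 15 measured erythroid markers, 3 passed the filter in the second experiment (Hbb-bt, Gata1 and Klf1). The sum over all 15 was 13.2 to 14.2 CPM with DMSO and 25.8 to 37.8 CPM with PF-9363, and Gata1 alone went from a mean of 6.47 to 21.7 CPM. Klf1 was not called, at means of 1.09 and 0.632 CPM. In the same libraries 9 of 10 mast cell and basophil markers were higher, against 36.6% of all genes. Which cells held the Gata1 RNA was not tested, so the rise of the sum is not read as more red cell precursors. Hba-a2, Hbb-bs and Epb42 had 0 counts in every DMSO library, and Hba-a2, Slc4a1 and Epb42 in every PF-9363 library. Hbb-bt, an adult beta globin gene, was higher with PF-9363 at 6.27 against 2.80 CPM (log2 change 1.15 ± 0.25 SE, edgeR adjusted p = 1.25e-04).

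In the first experiment 12 erythroid markers passed, 5 of them higher and 0 lower with SETBP1-D868N (1 lower without SETBP1-D868N library 3). Over all genes 24.5% were higher and 22.7% lower. The sum over the list was 64.5 to 64.9 CPM with luciferase and 76.0 to 78.0 CPM with SETBP1-D868N. Most of it was Gata1, at a mean of 43.5 and 44.9 CPM, which was not called. Hbb-bt rose from 2.07 to 7.84 CPM (log2 change 1.92 ± 0.12 SE, edgeR adjusted p = 2.43e-07) in the libraries that held 5 to 7 counts of Alas2. The part of erythroid cells in the changes of the other enzymes was not tested.

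SETBP1-D868N against luciferase asks what the mutant protein changes in these cells. Of the 8 enzymes 7 were tested, 1 was higher (Alad), 1 was lower (Alas1) and 5 were not called, against 47.2% of all genes called. The median log2 change of the 7 was 0.020. The sum over all 8 enzymes was 537.1 to 559.2 CPM with luciferase and 487.8 to 505.7 CPM with SETBP1-D868N, and most of it is Alas1.

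Alas1 (chr9:106233455-106248654, minus strand) stood at 329.4, 346.9 and 347.8 CPM in the luciferase libraries 1 to 3 and at 278.0, 291.6 and 276.5 CPM in the SETBP1-D868N libraries. All 3 mutant libraries lay below all 3 controls, and 56.7% of all tested genes also had no overlap between the groups. Its log2 change was -0.28 ± 0.030 (SE), with edgeR adjusted p = 1.5e-05. Its antisense neighbour 4930500F10Rik, which shares 465 exon bases with it, was at under 1 CPM in this experiment.

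Alad (chr4:62509169-62519918, minus strand), which joins molecules of aminolevulinic acid into porphobilinogen in the cytosol, stood at 16.1, 16.9 and 15.9 CPM with luciferase and at 18.5, 20.2 and 18.6 CPM with SETBP1-D868N. Here the mutant libraries all lay above the controls. This was a log2 change of 0.23 ± 0.052 (SE), with edgeR adjusted p = 0.00295.

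Uros closes the porphyrin ring and Urod then trims its acid side chains, both in the cytosol. Uros lay between 10.9 and 11.5 CPM with luciferase and between 11.2 and 11.8 CPM with SETBP1-D868N. Urod lay between 34.7 and 36.9 CPM and between 34.8 and 38.4 CPM. Both overlapped between groups. The 95% interval of the log2 change was -0.06 to 0.18 for Uros and -0.08 to 0.12 for Urod.

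The last 3 enzymes, Cpox, Ppox and Fech, work in mitochondria: Cpox and Ppox oxidise the ring to protoporphyrin and Fech places iron in it. Cpox stood at 59.97, 58.9 and 63.1 CPM with luciferase and at 63.4, 62.5 and 66.6 CPM with SETBP1-D868N. The groups overlapped through luciferase library 3, and the log2 change of 0.08 (95% interval 0.0017 to 0.16) had an edgeR adjusted p of 0.0874. Without luciferase library 3 it was 0.11 with an adjusted p of 0.0494, and with scaling by library size alone 0.13 with 0.0107. Cpox is therefore on either side of the threshold depending on these choices.

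Ppox went from 40.9 ± 2.40 to 39.7 ± 2.58 CPM and Fech from 44.2 ± 1.29 to 42.9 ± 0.89 CPM (SD, n = 3 each). Neither was called, and their 95% intervals of the log2 change were -0.17 to 0.08 and -0.12 to 0.04. Ppox (chr1:171275990-171281186, minus strand) shares 791 exon bases with B4galt3 on the other strand, which fell slightly here (log2 change -0.17, edgeR adjusted p = 0.00274).

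**Figure D2:**
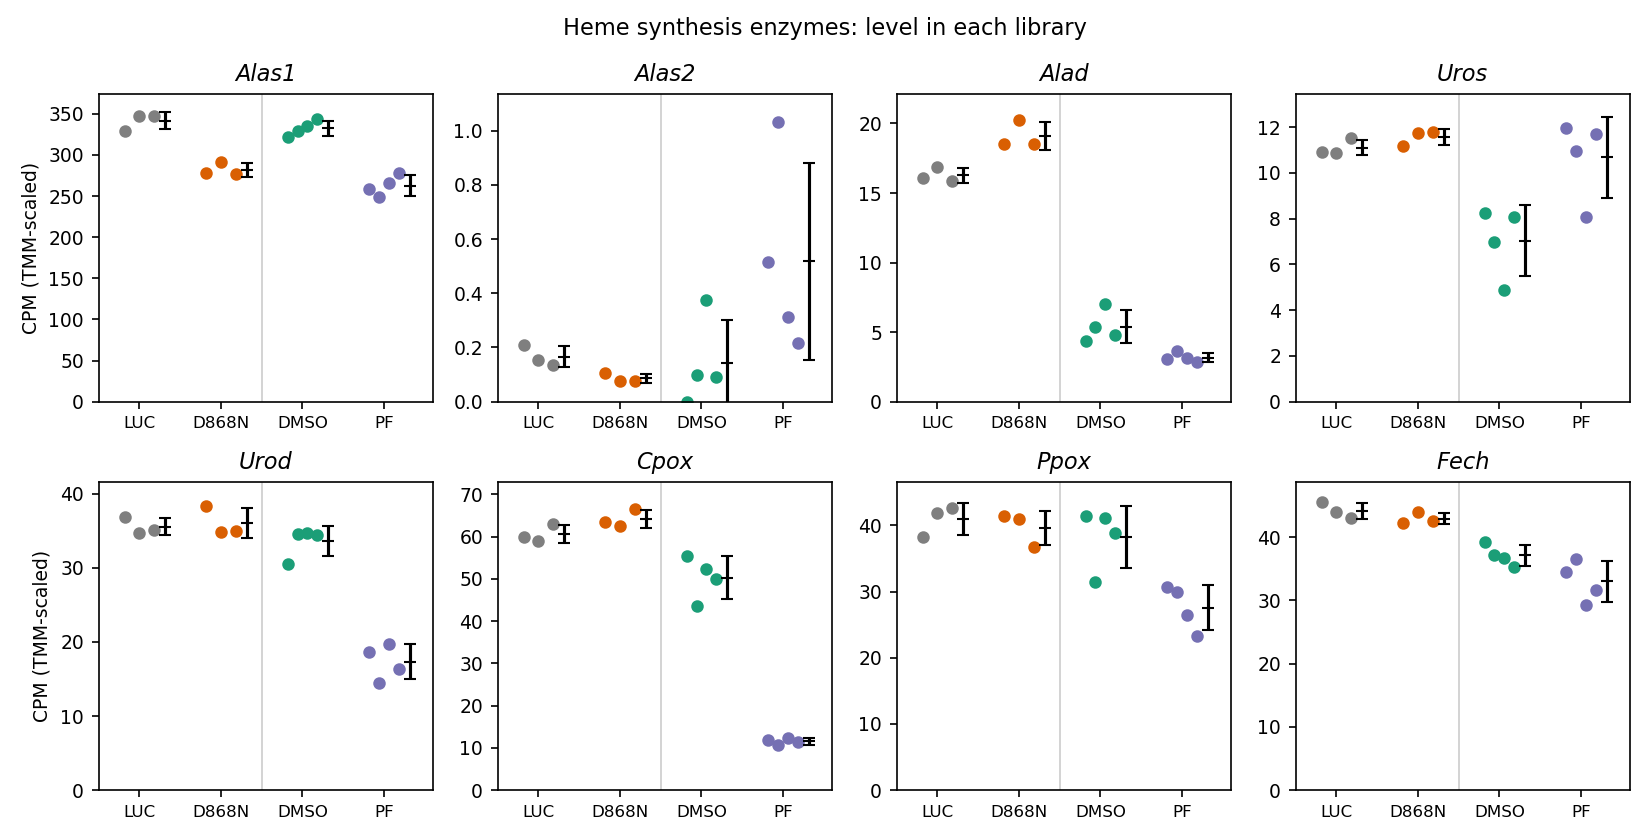
CPM (TMM-scaled, axes from 0) of the 8 enzymes in each library, as points, with the mean ± SD of each group in black beside them; the grey line separates the experiments, and the lower bar of Alas2 with DMSO runs below 0. Alas1 is lower with SETBP1-D868N (D868N) and with PF-9363 (PF) than in the control of each, Cpox with PF-9363 lies at 10.6 to 12.3 CPM against 43.5 to 55.3 with DMSO, and Uros is the enzyme called higher with PF-9363.

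PF-9363 against DMSO asks what MYST inhibition changes in cells that carry SETBP1-D868N. Of the 7 enzymes tested, 5 were lower (Alas1, Alad, Urod, Cpox and Ppox), 1 was higher (Uros) and Fech was not called. Over all genes 76% were called, 39.4% lower and 36.6% higher, so most genes of any kind changed here. For 70.3% of all tested genes the libraries of the 2 groups did not overlap. The median absolute log2 change of all tested genes was 0.65. The median log2 change of the 7 was -0.47, and the sum over the 8 enzymes was 488.6 to 514.6 CPM with DMSO and 355.6 to 375.4 CPM with PF-9363.

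Cpox (chr16:58670292-58717636, plus strand) changed most. It stood at 55.3, 43.5, 52.4 and 49.99 CPM in the DMSO libraries 1 to 4 and at 11.9, 10.6, 12.3 and 11.4 CPM in the PF-9363 libraries. The lowest DMSO library was still more than 3 times the highest PF-9363 library. The log2 change was -2.13 ± 0.11 (SE; 95% interval -2.35 to -1.91), with edgeR adjusted p = 1.13e-16. Under all 16 alternatives it remained called and between -2.36 and -2.08. Of all tested genes, 6.47% had a log2 change below that of Cpox. Of the 2 GATA sites in its window, one is in the promoter printed above and one just after the start; no binding was measured. Gpr15, which shares 204 exon bases with Cpox on the other strand, was at 1.12 CPM with DMSO and 0.117 CPM with PF-9363 and was not tested there.

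Urod (chr4:116989965-116994413, minus strand) stood at 30.5, 34.6, 34.8 and 34.4 CPM with DMSO and at 18.6, 14.4, 19.8 and 16.4 CPM with PF-9363. The groups did not overlap, and DMSO library 1 lay below the other 3. Urod thus had a log2 change of -0.96 ± 0.11 (SE; 95% interval -1.18 to -0.74), with edgeR adjusted p = 5.7e-09.

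Alad was a low gene in this experiment, with 44, 54, 75 and 53 counts in the DMSO libraries and 30, 28, 20 and 26 in the PF-9363 libraries. Scaled to depth these were 4.36, 5.39, 7.02 and 4.81 CPM against 3.09, 3.61, 3.11 and 2.82 CPM. The treated libraries all lay below the controls. For Alad the log2 change was -0.78 ± 0.23 (SE; 95% interval -1.25 to -0.31), with edgeR adjusted p = 0.00326.

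Ppox stood at 41.5, 31.4, 41.1 and 38.8 CPM with DMSO and at 30.7, 29.9, 26.5 and 23.2 CPM with PF-9363. The groups came close but did not overlap, as DMSO library 2 lay just above PF-9363 library 1. The log2 change was -0.47 ± 0.11 (SE), with edgeR adjusted p = 2.54e-04. Its overlapping neighbour B4galt3 had a log2 change of -0.23 that was not called (adjusted p = 0.0573).

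Alas1 stood at 321.7, 329.4, 335.3 and 343.2 CPM with DMSO and at 259.0, 248.7, 265.6 and 278.0 CPM with PF-9363. All treated libraries lay below all controls. Its log2 change was -0.34 ± 0.058 (SE; 95% interval -0.46 to -0.22), with edgeR adjusted p = 6.74e-06. By library size alone it was -0.57. Alas1 was the sole enzyme of the 8 called lower in both comparisons. Over all genes, 22.7% were lower with SETBP1-D868N and 39.4% with PF-9363, and the share lower in both is not given here. No test was made between the 2 changes of Alas1. 4930500F10Rik fell with PF-9363, from 1.36 to 0.520 CPM.

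Uros (chr7:133686243-133710072, minus strand) moved the other way. It stood at 8.23, 6.99, 4.87 and 8.07 CPM with DMSO and at 11.95, 10.96, 8.09 and 11.7 CPM with PF-9363. The groups overlapped narrowly, since PF-9363 library 3 lay between the DMSO libraries. This gave a log2 change of 0.62 ± 0.18 (SE; 95% interval 0.26 to 0.97), with edgeR adjusted p = 0.00245. With scaling by library size alone it was 0.39, with an adjusted p of 0.0481. Its neighbour Bccip overlaps the gene on the other strand without sharing an exon base, and it had a log2 change of 0.09 that was not called (adjusted p = 0.372).

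Fech, on chromosome 18, stood at 39.3, 37.2, 36.7 and 35.2 CPM with DMSO and at 34.5, 36.5, 29.3 and 31.7 CPM with PF-9363. The groups overlapped through PF-9363 library 2. The log2 change was -0.17 (95% interval -0.36 to 0.02), with edgeR adjusted p = 0.104. With scaling by library size alone it was -0.40 with an adjusted p of 5.08e-04 and counted as lower. That scaling moved the median of all genes by -0.23 on the log2 scale.

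**Figure D3:**
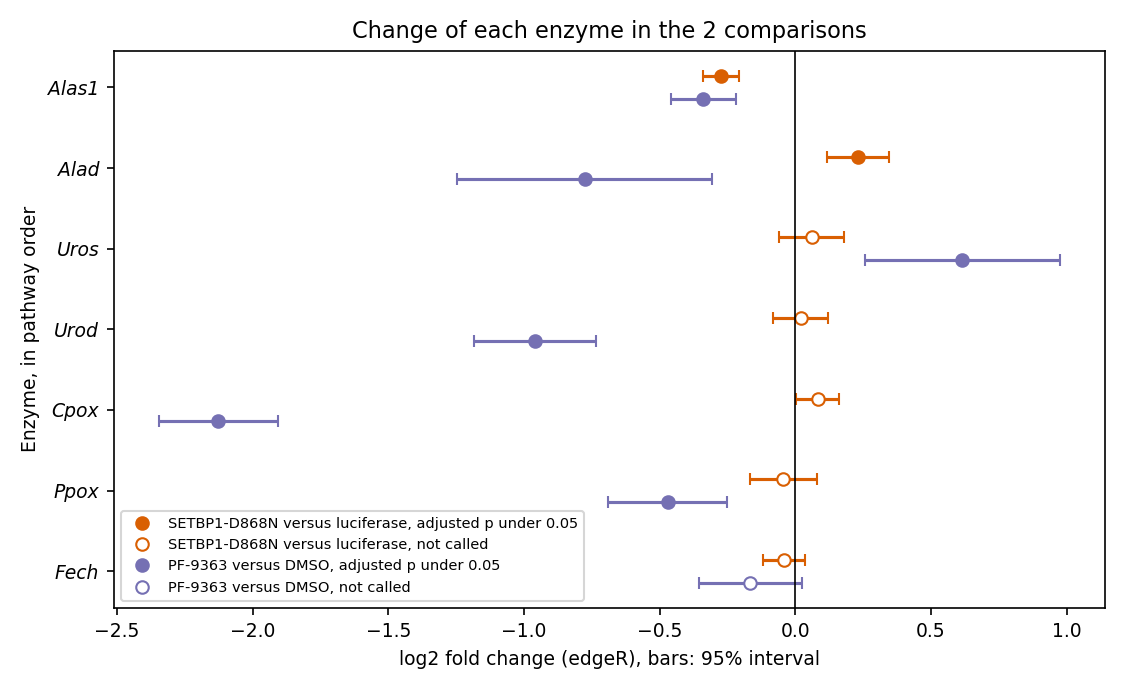
Log2 fold change of each tested enzyme in pathway order (edgeR; x axis on the log2 scale), with bars for the 95% interval, for SETBP1-D868N against luciferase (orange) and PF-9363 against DMSO (purple); filled points have an adjusted p under 0.05. The orange points stay within 0.3 of 0, whereas the purple points run from -2.13 for Cpox to 0.62 for Uros; Alas2 was not tested.

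Marker RNA of cell division and of other cell types also differed in the same libraries. Over all genes, 36.6% were higher and 39.4% lower with PF-9363, and 24.5% and 22.7% with SETBP1-D868N. With PF-9363, all 12 cell division genes were lower (median log2 change -2.65), and their sum was 3367 to 3602 CPM with DMSO and 507.1 to 826.3 CPM with PF-9363. Of 10 macrophage markers 9 were higher (median 2.75; sums 431.8 to 528.1 and 3171 to 3841 CPM). Of 10 mast cell and basophil markers 9 were higher too (median 1.92; sums 1294 to 1680 and 4995 to 6016 CPM). Among neutrophil precursor markers 2 were higher (Ltf and Mmp8) and 5 lower (sums 19120 to 22400 and 16810 to 18270 CPM). Elane fell from 1453 to 1.75 CPM and Prtn3 from 1054 to 7.31 CPM, while S100a9, a large part of the sum at 7192 and 7972 CPM, was not called. With SETBP1-D868N, 10 of 12 cell division genes were higher (sums 3456 to 3678 and 3753 to 3975 CPM) and all 10 macrophage markers were lower (sums 907.9 to 938 and 553.7 to 584.3 CPM; 9 or 10 when leaving out each library). The median change of the cell division genes was small, at 0.16. Neutrophil precursor markers split (median -0.68): Elane, Mpo, Prtn3 and Ctsg were the 4 higher, and Ltf, Camp, Ngp, S100a8, S100a9 and Mmp8 the 6 lower. Their sum was 25160 to 26210 CPM with luciferase and 17250 to 19810 CPM with SETBP1-D868N. S100a9 alone was at a mean of 7257 and 4357 CPM, and Elane at 730.6 and 921.7 CPM. Mast cell and basophil markers were 5 higher and 5 lower (sums 5620 to 5834 and 6205 to 6410 CPM). The part of these shifts in the changes of the heme enzymes was not tested.

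The genes most like each enzyme were found over the 14 libraries by the root mean square distance of log2 CPM, centred within each experiment, among 12376 genes tested in both. Cpox lay closest to Ptma, a prothymosin (distance 0.0846), and to Tbl2 (0.0912). Urod lay closest to Lmf1 (0.0745) and Asb8 (0.0812), and Alas1 to Map3k15 (0.0632) and Mapk3 (0.0637). For Alad the nearest were Vbp1 (0.0941) and Slc35b2 (0.111), and for Uros they were Mex3d (0.105) and Gatad2b (0.135). Ppox was nearest to Ppcdc (0.0779) and Foxred1 (0.0836), and Fech to Swap70 (0.0492) and Cnot3 (0.0502). A short distance comes easily to genes that change little, as with Fech. With Pearson's correlation as the measure, a different gene came first for every enzyme but Uros.

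Among the enzymes themselves, this distance was shortest between Alas1 and Fech (0.145) and longest between Cpox and Uros (1.045). It follows the size of the changes and not their shape alone. The libraries share the treatments, so these distances are descriptions without a test.

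Heme synthesis draws on other mitochondrial genes that bring in substrates, build iron-sulfur clusters or move porphyrins. With SETBP1-D868N, 10 of 18 such genes rose and 0 fell (median log2 change 0.12, against 24.5% of all genes higher). Shmt2, which makes glycine in mitochondria, rose from 252 ± 3.66 to 358.1 ± 10.3 CPM (SD, n = 3; log2 change 0.51, edgeR adjusted p = 6.56e-08). Slc25a37, the mitochondrial iron importer mitoferrin, rose with a log2 change of 0.36 (adjusted p = 1.48e-04).

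With PF-9363, 11 of 17 tested genes of this list were lower and 3 higher (median -0.32, against 39.4% of all genes lower). By library size alone the list was 13 lower and 2 higher (median -0.55), and leaving out each library gave 9 to 12 lower. Fam210b fell most, from 14.3 ± 1.55 to 5.71 ± 1.07 CPM (SD, n = 4; log2 change -1.33, edgeR adjusted p = 1.85e-08). Nfs1, the cysteine desulfurase of iron-sulfur cluster assembly, fell with a log2 change of -1.02 (adjusted p = 2.28e-09). The 3 that rose were Tmem14c, Iscu, the scaffold of the same assembly (log2 change 0.73, adjusted p = 1.32e-08), and Slc25a39, a mitochondrial glutathione carrier (0.66, adjusted p = 7.12e-09, and 0.42 by library size alone).

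Heme is converted into heme A by Cox10 and Cox15 with Fdx1 and Fdxr, and attached to cytochrome c by Hccs. With SETBP1-D868N 4 of these 5 genes were higher (median log2 change 0.24), against 24.5% of all genes. They were Cox10 at 0.36, Fdxr at 0.28, Hccs at 0.24 and Cox15 at 0.15. Fdx1 had -0.12 and was not called (edgeR adjusted p = 0.0843). Without SETBP1-D868N library 1 the list was 4 higher and 1 lower. With PF-9363 all 5 were lower (median -0.58), against 39.4% of all genes. Their log2 changes were -0.48 for Cox10, -0.64 for Cox15, -0.35 for Hccs, -0.59 for Fdx1 and -0.58 for Fdxr. The largest adjusted p of these 5 was 0.0112, for Cox10, whose groups overlapped. Without PF-9363 library 4, 4 of the 5 were called lower.

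Heme also has to be exported, taken up and broken down. With SETBP1-D868N, 4 of 13 tested genes of that list were higher and 5 lower, against 24.5% and 22.7% of all genes. Hmox1, the heme oxygenase that opens the ring, fell from 69.4 ± 2.38 to 49.1 ± 3.45 CPM (log2 change -0.50, edgeR adjusted p = 1.5e-05), and Abcc5 fell with a log2 change of -0.46 (adjusted p = 1.47e-06). Among the higher genes were Slc46a1, the heme and folate carrier (0.46, adjusted p = 0.0122), and Pgrmc1, a heme-binding protein (0.17, adjusted p = 0.00189). The call of Slc46a1 was lost without luciferase library 3 (adjusted p = 0.054) and without SETBP1-D868N library 1 (adjusted p = 0.0551).

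With PF-9363, 13 genes of the list were tested, with Cd163 in and Abcg2 out. Of these, 7 were higher and 4 lower, against 36.6% and 39.4% of all genes. Their median log2 change was 0.17, and -0.056 when scaled by library size alone (5 higher, 6 lower). Hmox1 rose from 75.2 ± 8.55 to 247 ± 35.6 CPM (log2 change 1.71, edgeR adjusted p = 7.65e-10). Blvrb, a biliverdin reductase, rose from 17.7 ± 2.35 to 72.98 ± 8.41 CPM (log2 change 2.04, adjusted p = 1.24e-16). The hemoglobin scavenger receptor Cd163 fell with a log2 change of -2.70 (adjusted p = 3.71e-05) and Slc46a1 with one of -1.97 (adjusted p = 6.13e-05). Macrophages also express Hmox1, and their markers were higher in the same libraries (9 of 10); their part in its rise was not tested.

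The next list holds proteins that carry heme or work beside it. With SETBP1-D868N, 5 of 18 tested genes were higher and 6 lower, near the shares over all genes (24.5% and 22.7%), with Mpo, the neutrophil peroxidase, up by 0.40 on the log2 scale (edgeR adjusted p = 3.07e-07) and Cycs, cytochrome c, by 0.28 (adjusted p = 1.42e-04). Cybb, the heme-bearing subunit of the phagocyte oxidase, fell with a log2 change of -0.73 (adjusted p = 1.01e-08), and Nos2, the inducible nitric oxide synthase, with one of -1.76 (adjusted p = 1.34e-05).

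With PF-9363, 9 of 16 hemoprotein genes were higher and 4 lower, against 36.6% and 39.4% of all genes. Their median was 0.18, and -0.056 when scaled by library size alone (6 higher, 6 lower). Mpo fell from 2320 ± 305 to 6.35 ± 4.04 CPM (SD, n = 4; log2 change -8.49, edgeR adjusted p = 4.05e-07). Nos2 fell with a log2 change of -4.90 (adjusted p = 2.95e-05). Cybb rose from 225.4 ± 19.9 to 1106 ± 64.7 CPM (log2 change 2.29, adjusted p = 6.81e-22), and its partner Cyba rose with a log2 change of 1.54 (adjusted p = 8.6e-19).

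Transcription factors and sensors known to act on heme genes were the last list. With SETBP1-D868N, 4 of 15 were higher and 4 lower (median log2 change -0.012), near the shares over all genes (24.5% and 22.7%). By library size alone 6 were higher and 3 lower (median 0.037), and the median was also above 0 without luciferase library 2 (0.0076) or 3 (0.0050). Klf1, an erythroid factor, rose from 3.05 ± 0.52 to 5.96 ± 0.14 CPM (log2 change 0.97, edgeR adjusted p = 2.43e-05), and Zfpm1, the GATA partner, rose with a log2 change of 0.44 (adjusted p = 1.88e-05). Foxo1 fell with one of -0.55 (adjusted p = 2.18e-04) and Nfe2l2 with one of -0.30 (adjusted p = 5.07e-05).

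With PF-9363, 10 of these 15 were higher and 2 lower, at a median of 0.81, against 36.6% and 39.4% of all genes. Gata2 rose from 56.1 ± 3.55 to 296.8 ± 24.7 CPM (SD, n = 4; log2 change 2.40, edgeR adjusted p = 5.35e-22) and Tal1 with a log2 change of 2.31 (adjusted p = 4.66e-16). Gata1 also rose, from 6.47 to 21.7 CPM, and Nrf1 from 37.8 to 48.9 CPM (adjusted p = 3.34e-04), while Klf1 was not called at 1.09 and 0.632 CPM (adjusted p = 0.141). Nfe2 and Eif2ak1, the heme-regulated kinase of protein synthesis, were lower, Eif2ak1 with a log2 change of -0.35 (adjusted p = 1.28e-04, and -0.58 by library size alone). A single gene of the list was lower without DMSO library 1, 3 or 4 or PF-9363 library 4.

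**Figure D4:**
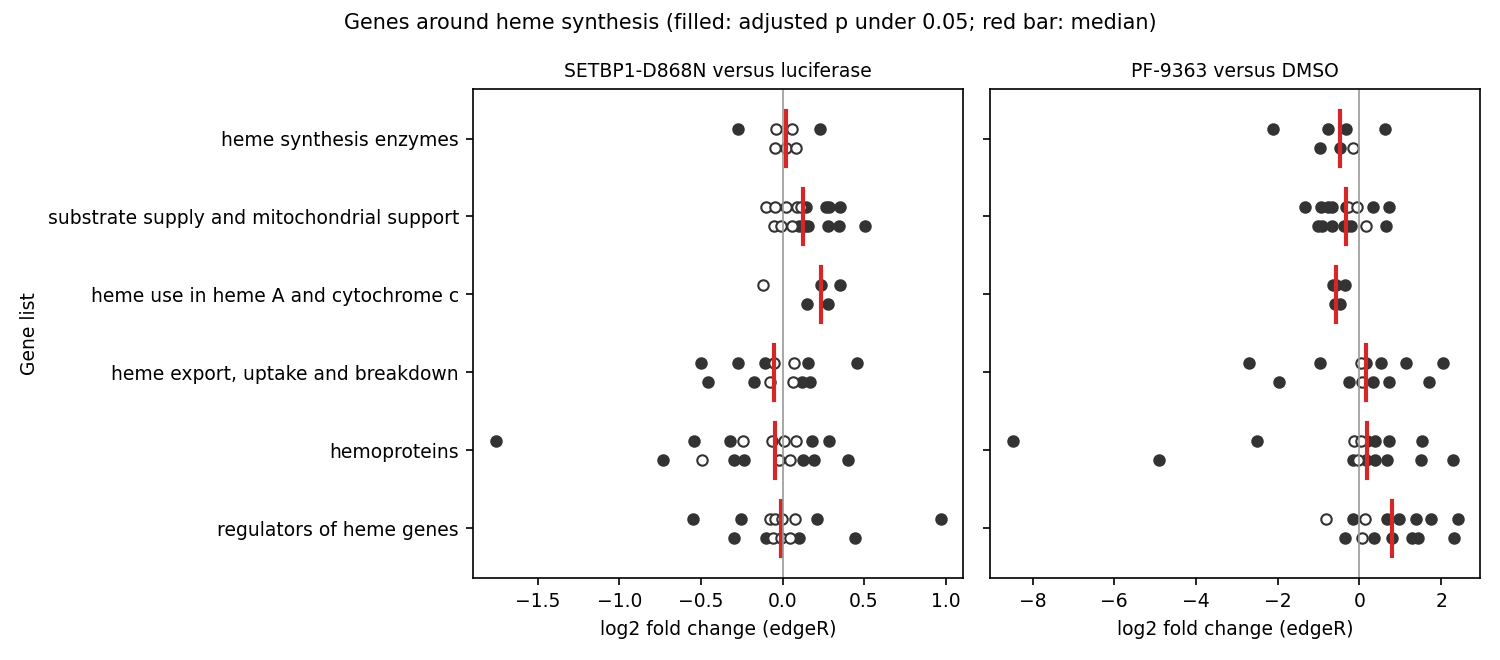
Log2 fold changes (edgeR) of the tested genes in 6 lists around heme synthesis, for SETBP1-D868N against luciferase on the left and PF-9363 against DMSO on the right, on different x scales; each point is a gene, filled where the adjusted p was under 0.05, and red bars are medians. The bar for heme synthesis enzymes sits at 0.020 on the left and -0.47 on the right, and that for regulators of heme genes at -0.012 and 0.81.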

How the data were processed

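Per the labels, the values the authors deposited are raw counts, with gene symbols as rows and 1 table for each experiment. STAR, DESeq2 and GRCm38 (mm10) appear in the submitters' processing notes without a role or version, and the counting program and its use of strand are not given in the sources used here. Per the labels' protocols, 500 ng of total RNA entered the Watchmaker mRNA kit in the first experiment and 100 ng went to Novogene in the second.

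From the counts, each experiment was fitted alone with edgeR 4.0.16 in R 4.3.3: filterByExpr (minimum count 10, minimum total 15), TMM scaling, robust glmQLFit and glmQLFTest. Standard errors are the absolute log2 change over the square root of F. The fit was tested on simulated data. Transcript lengths, coordinates and overlaps are from GENCODE M21 on GRCm38. Library totals limit a gene at 0 counts to 0.0436 to 0.0499 CPM in the first experiment and 0.290 to 0.424 CPM in the second. These limits are without TMM correction.

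The enzymes, lists and tests were chosen with earlier results of these data known. All 8 enzymes are named, lists of 5 or fewer genes are given whole where tested, and of other lists the 2 genes per direction with the largest change among those called and not overlapping. Further genes (the overlapping neighbours, Hbb-bt, Gata1, Nrf1, Nfe2, Tmem14c, Abcg2, S100a9, Ltf, and Klf1 with PF-9363) were named after their values were seen. So were the other genes named from the marker lists, such as Elane, Prtn3, Hba-a2 and Slc4a1. Of the 5 lymphoid markers only Cd3g was tested, in the first experiment (log2 change -1.87, adjusted p = 0.0456). Megakaryocyte markers (1 of 7 higher and 5 lower with SETBP1-D868N, 4 of 5 higher and 1 lower with PF-9363, but 2 higher by library size alone or without DMSO library 3) and progenitor markers (5 higher and 4 lower of 10, then 4 and 4) were also counted. The shares over all genes were 24.5% higher and 22.7% lower, then 36.6% and 39.4%. Ahsp, an erythroid marker, was not used here, and 1 further result is not reported here. Alternatives were RLE or library-size scaling, other count filters, DESeq2 1.42.0, limma-voom 3.58.1, no robust estimation, the replicate number as a block, exon union as length, and leaving out each library.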

Additional observations from a re-analysis of the deposited data

Results flagged for a closer look

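Urod in the DMSO group was set off by 1 library. DMSO library 1 stood at 30.5 CPM, while the other 3 lay between 34.4 and 34.8 CPM, and its gap to the nearest of them was 0.914 of the whole range of the group. That was 1 of 16 groups of 4 libraries tested for such a gap, and chance gives about 1 in 20. The fall of Urod with PF-9363 stayed called without that library.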

How the results depend on the processing

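Of the enzymes, 1 was called higher with SETBP1-D868N (Alad), and 2 were when scaled by library size alone or without luciferase replicate 3 (Alad and Cpox), a range of 1 to 2 when leaving out each replicate. Alas1 remained the 1 enzyme called lower in all 14 alternatives, between -0.31 and -0.23 on the log2 scale. Some values that were not called changed sign with SETBP1-D868N. Leaving out each replicate, Urod ranged from -0.0315 (without SETBP1-D868N replicate 1) to 0.0478, and Ppox from -0.0924 to 0.0057 (without SETBP1-D868N replicate 3). By library size alone Ppox was 0.0037 and Fech 0.0064. With PF-9363, Uros remained the 1 enzyme called higher and 5 were called lower, or 6 with Fech by library size alone, where Alas1 was -0.57 (-0.36 to -0.30 when leaving out each replicate). Library size alone moved the median log2 change of all genes by 0.049 and -0.23, and the share of higher genes among those called from 51.9% to 62.1% and from 48.1% to 36.2%. Without a filter beyond 1 count, Alas2 had log2 changes of -0.93 (adjusted p = 0.238) and 1.74 (adjusted p = 0.113), not called. With the exon union as length, Alas1, Urod and Alas2 kept the first, second and last place, while Alas1 with luciferase was 55.3 RPKM.

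With the replicate number as a replicate block, the enzymes' calls were the same (1 higher and 1 lower, then 1 higher and 5 lower; Cpox with PF-9363 -2.13), and 6640 and 10124 genes were called in all. Libraries of the same number correlated between -0.0968 and -0.0369 in the first experiment and between -0.0402 and 0.00753 in the second, so the numbers were not taken as pairs. Alas2, at 0 to 14 counts per library, passed the filter at neither depth.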
